A study of Mus musculus with 2 samples.

Results

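The Mir17-Mir92 cluster, named after its first and last hairpins, and the Mir106b-25 cluster are polycistronic microRNA loci, in which several hairpins are cut from 1 primary transcript. Their members were taken as the rows of the deposited count tables whose GENCODE M21 symbol is Mir17, Mir18, Mir19a, Mir20a, Mir19b-1 or Mir92-1 (chromosome 14) or Mir106b, Mir93 or Mir25 (chromosome 5), which gave all 9 listed genes of 2202 microRNA genes. They were measured by small RNA sequencing of total RNA from gastrocnemius, a calf muscle, of female B6CASTF1/J mice (a hybrid of C57BL/6J and CAST/EiJ) aged 14 days. No treatment or genotype contrast is named, and the 2 libraries are biological replicates of 1 group. Both libraries carry the same donor identifier, and the name given to the tissue of replicate 1 speaks of 3 females where that of replicate 2 speaks of 1, without a word on pooling. The SD is therefore the spread between these samples and may be partly technical. RNA came from whole tissue, so fewer cells of a type and less RNA per cell cannot be told apart. With 1 group there was no contrast to test.

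Both clusters are widely studied as growth loci. The primary transcript of Mir17-Mir92 is induced by MYC and E2F factors in proliferating cells, and its microRNAs are known to lower transcripts such as Bcl2l11 and Cdkn1a that restrain growth or promote cell death. Mir106b-25 lies within Mcm7, which encodes a subunit of the replicative helicase, and is made together with that transcript in dividing cells. The clusters are paralogs, descended with the X-linked Mir106a-363 cluster from a common ancestor.

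A microRNA finds its targets mainly through its seed, bases 2 to 8 of the mature strand, so members that share a seed were grouped. The strand listed for each member is the arm usually taken as its functional strand, printed from RefSeq (GRCm38.p6, in which all 9 members were found at the GENCODE position) with the seed in capitals. The first 4 strands form the miR-17 seed family (AAAGUGC), which both clusters supply, followed by the miR-18 seed (AAGGUGC), the miR-19 seed (GUGCAAA) and the miR-92 seed (AUUGCAC), which miR-25 also carries.
miR-17-5p of Mir17: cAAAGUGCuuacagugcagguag
miR-20a-5p of Mir20a: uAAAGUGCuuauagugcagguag
miR-93-5p of Mir93: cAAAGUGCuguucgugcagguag
miR-106b-5p of Mir106b: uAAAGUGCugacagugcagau
miR-18a-5p of Mir18: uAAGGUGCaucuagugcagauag
miR-19a-3p of Mir19a: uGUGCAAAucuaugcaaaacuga
miR-19b-3p of Mir19b-1: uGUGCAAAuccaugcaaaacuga
miR-92a-3p of Mir92-1: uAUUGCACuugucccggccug
miR-25-3p of Mir25: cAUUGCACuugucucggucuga

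Within a seed family the strands differed at few bases, counted from 1 at the 5′ end. From miR-17-5p to miR-20a-5p the changes were C1U and C12U. To miR-93-5p they were U10G, A11U, C12U and A13C. The strands miR-19a-3p and miR-19b-3p differed by U11C alone, and miR-92a-3p differed from miR-25-3p by U1C, C14U and C18U over 21 compared bases. Among the strands listed by RefSeq, 7 genes carried the miR-17 seed, and the only one outside these clusters and Mir106a-363 was Mir6383, with 0 reads in both libraries.

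The Mir17-Mir92 hairpins lie on the forward strand at chr14:115043671-115044506 (mm10), a span of 836 nt inside an exon of the single annotated transcript of the long noncoding gene Mir17hg (115042879 to 115046727). Their order along the transcript is Mir17, Mir18, Mir19a, Mir20a, Mir19b-1 and Mir92-1, with 35 to 96 nt between neighbours. The Mir106b-25 hairpins lie on the reverse strand at chr5:138165321-138165818, a span of 498 nt within Mcm7 (138164583 to 138172422), in the order Mir106b, Mir93 and Mir25. Mir106b was intronic in both annotated Mcm7 transcripts that span it, whereas Mir93 and Mir25 were intronic in 2 transcripts and exonic in 1. The chromosome 5 hairpins were richer in G and C (55.7% to 63.1%) than those of chromosome 14 (43.7% to 47.5%). By RNAfold the lowest predicted folding energy was that of Mir93 (-46.3 kcal/mol) and the highest that of Mir18 (-29.2 kcal/mol).

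The libraries held 4292012 reads assigned to microRNA genes in replicate 2 and 2672454 in replicate 1. Levels are given as CPM, the reads of a gene per 1000000 of these assigned reads, so 1 read was worth 0.233 CPM in replicate 2 and 0.374 CPM in replicate 1. A count of 0 was given a limit of 3 reads, which is 0.699 CPM in replicate 2 and 1.12 CPM in replicate 1. The exact interval used for the other values reaches 0.859 CPM and 1.38 CPM at 0 reads. Another 6352784 and 4219456 reads aligned to several places and were assigned to no gene. Intervals are exact 95% binomial (Clopper-Pearson) intervals of counting error only, since the labels name no molecular identifiers. Each count pools both arms of a hairpin, and no member had a read on its opposite strand. The mature strands printed above are 21 to 23 nt long, so CPM was compared between members without a length term. Of 8 skeletal muscle microRNAs used as a tissue check, 7 reached 1 CPM in both libraries and their sum was 85338 CPM in replicate 2 and 95682 CPM in replicate 1. The endothelial microRNA Mir126a had 119268 and 118724 CPM. The muscle list holds Mir1a and Mir133a as pairs of genes, and reads that fit both genes of a pair would be in no count. Its sum may therefore be too low and cannot be set against that of Mir126a. Other marker sums differed between the libraries. The erythroid pair Mir451a and Mir144 summed to 185 CPM in replicate 2 and 437 CPM in replicate 1, and 4 leukocyte microRNAs summed to 853 and 1185 CPM. The hepatocyte microRNA Mir122 had 14.2 and 229 CPM, and 8 annotated genes of the pluripotent list had 9 and 3 reads in all. Their part in the values given here was not tested.

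Mir17-Mir92 and Mir106b-25 were both present at moderate levels, led in counted reads by a miR-17 seed gene in each. The counts of Mir19b-1 and Mir92-1 leave out reads that also fit their X-linked copies, so these levels may be too low. The Mir17-Mir92 genes summed to 2965 CPM in replicate 2 and 3017 CPM in replicate 1, a mean of 2991 ± 36.6 CPM (SD, n = 2). The Mir106b-25 genes summed to 1809 CPM in replicate 2 and 2190 CPM in replicate 1, a mean of 2000 ± 270 CPM. Together the 9 genes held 0.499% ± 0.0306 of assigned reads. Reads that aligned to several places are in no gene's count, so shares and ranks among all genes hold for assigned reads only. Of the 9 members, 7 reached 1 CPM in both replicates, beside 16.7% of all 2202 genes. The other 2, Mir19a and Mir19b-1, were below 1 CPM in replicate 2 and above it in replicate 1. The same 7 averaged at least 100 CPM, beside 7.99% of all genes. The median mean level was 434 CPM over the 9 members, against 0 CPM over all genes and 81.5 CPM over the 367 genes at 1 CPM in both replicates.

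**Figure D1:**
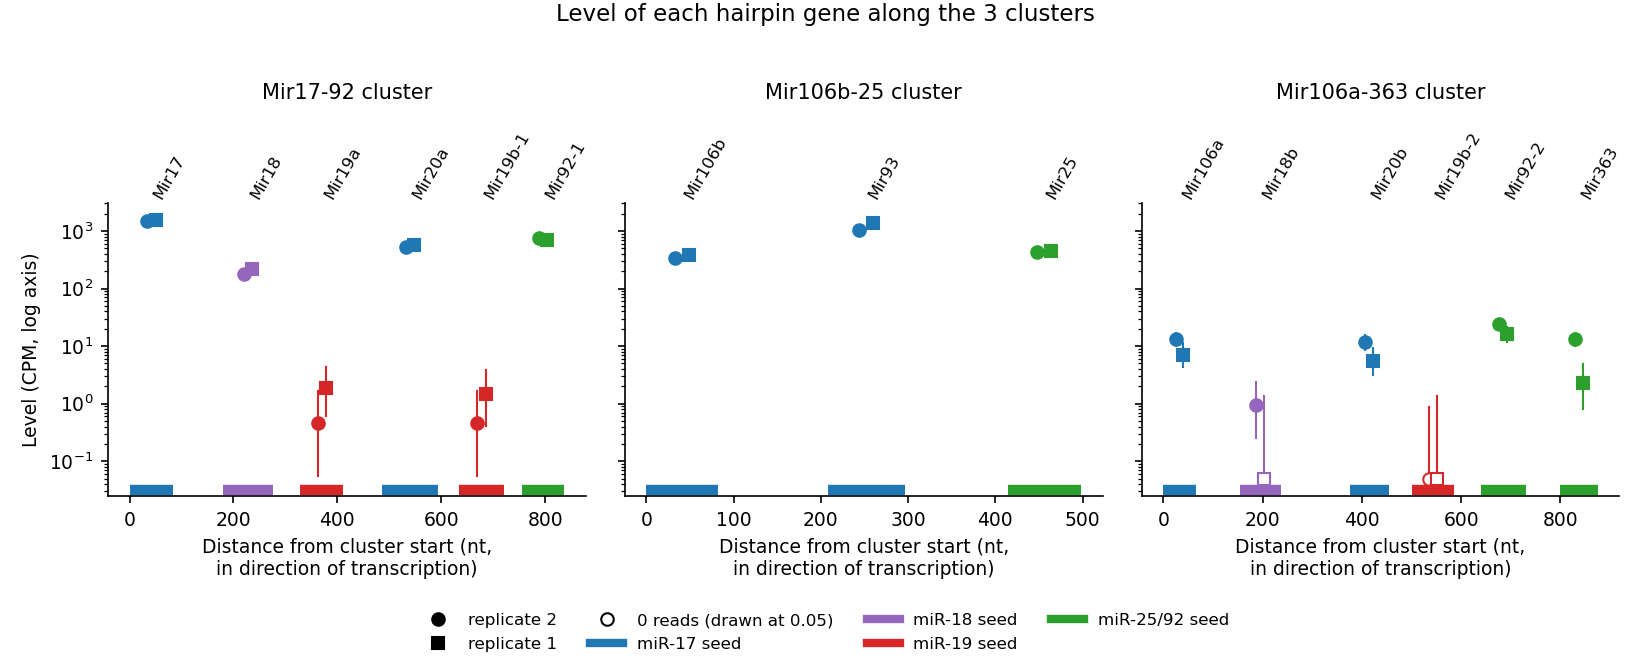
Level of each hairpin gene (CPM, log axis) against its distance from the start of its cluster in nt, for replicate 2 (circles) and replicate 1 (squares), with 95% counting intervals as vertical lines, colours for seed families, and open symbols for genes with 0 reads. Bars along the bottom mark the hairpins. Both miR-19 genes of Mir17-Mir92 lie at 0.466 to 1.87 CPM between neighbours at 179 CPM or more, and the X-linked Mir106a-363 genes lie at or below 24.0 CPM.

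Mir17, whose 5p strand founds the miR-17 seed family, was the most abundant member by counted reads. It had 1488 CPM in replicate 2 (interval 1451 to 1525) and 1536 CPM in replicate 1 (1490 to 1584). It ranked 62nd and 60th of 2202 genes in the 2 libraries and made up 50.5% ± 0.534 of the cluster's counted reads. Mir20a, which encodes the closest relative of miR-17-5p in its cluster, stood at 535 CPM in replicate 2 and at 565 CPM in replicate 1. The ratio of Mir17 over Mir20a was 2.78 in replicate 2 (interval 2.65 to 2.92) and 2.72 in replicate 1 (2.56 to 2.89), the closest to constant of any ratio to Mir17 within the cluster. Mir18, whose seed differs from the miR-17 seed by 1 base, was lower, at 179 CPM in replicate 2 and 216 CPM in replicate 1. Mir17 exceeded Mir18 by 8.31-fold in replicate 2 and 7.13-fold in replicate 1, with 96 nt between their hairpins.

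Mir92-1, the last hairpin of the cluster, had 763 CPM in replicate 2 (737 to 790) and 697 CPM in replicate 1 (665 to 729). It was the second gene of Mir17-Mir92 by counted reads, with 24.4% ± 1.87 of the cluster's total, well above Mir18 near the start of the transcript. Reads that also fit its X-linked copy Mir92-2 are not in this count. By CPM Mir92-1 was the only one of the 7 abundant members that was higher in replicate 2. With all reads of a library as the denominator, Mir17 was 1.03-fold, Mir25 1.01-fold and Mir20a 1.00-fold in replicate 2 relative to replicate 1.

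The miR-19 genes stood apart from the rest of their cluster. Mir19a, which encodes a strand known in mouse lymphoma models as a main oncogenic component of Mir17-Mir92, had 2 reads (0.466 CPM, interval 0.0564 to 1.68) in replicate 2 and 5 reads (1.87 CPM, 0.607 to 4.37) in replicate 1. Mir19b-1 had 2 reads (0.466 CPM, 0.0564 to 1.68) in replicate 2 and 4 reads (interval 0.408 to 3.83 CPM) in replicate 1. The reads of Mir17 over those of Mir19a gave a ratio of 3192 in replicate 2 (883 to 26367) and 821 in replicate 1 (352 to 2530). Against Mir18, the next lowest gene of the cluster, the ratio of Mir18 over Mir19a was 384 (106 to 3177) in replicate 2 and 115 (49.1 to 356) in replicate 1. The hairpins of Mir17, Mir18 and Mir19a are shown because they follow each other on the transcript and differ this widely in reads. Annotated mature strands are in capitals, and RefSeq lists 1 such strand for Mir19a.
Mir17, chr14:115043671-115043754: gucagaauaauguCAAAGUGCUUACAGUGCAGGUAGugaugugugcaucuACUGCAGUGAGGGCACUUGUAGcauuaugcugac
Mir18, chr14:115043851-115043946: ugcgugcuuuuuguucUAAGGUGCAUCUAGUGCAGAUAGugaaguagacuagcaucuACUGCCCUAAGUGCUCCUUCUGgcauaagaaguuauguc
Mir19a, chr14:115044000-115044081: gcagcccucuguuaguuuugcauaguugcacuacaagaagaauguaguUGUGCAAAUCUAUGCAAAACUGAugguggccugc

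A read that fits several loci would be counted for no gene, so each hairpin was searched for stretches it shares with any other of the 2202 annotated microRNA hairpins on either strand. Mir19b-1 shared 25 nt with Mir19b-2 and Mir92-1 shared 22 nt with Mir92-2. The other 7 members, Mir19a among them, shared at most 17 nt with any other hairpin. Mir19a, with a longest shared stretch of 13 nt, has no such exact copy among these hairpins, and the rest of the genome was not searched. Only exact stretches were searched, and miR-19a-3p differs from miR-19b-3p by U11C alone. Whether reads of Mir19a also fit other loci with a mismatch was not tested. In both copied stretches the identity ended at the last base of the mature strand, as the lines below show, with the shared stretch in lower case and the 4 flanking bases on each side in capitals. A read had to run past an end of the shared stretch, or come from the other arm, to fit Mir19b-1 or Mir92-1 alone. Mir92-1 had 3275 reads in replicate 2 and 1862 in replicate 1, and Mir19b-1 had 2 and 4. Reads that stay within a shared stretch align to both copies and are left out of both genes' counts. Their part in the low count of Mir19b-1 and in the level of Mir92-1 was not tested. Ranks, shares and ratios of these genes hold for counted reads only.
Mir19b-1: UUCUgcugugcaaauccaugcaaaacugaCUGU
Mir19b-2: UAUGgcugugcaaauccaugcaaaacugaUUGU
Mir92-1: UAUGguauugcacuugucccggccugUUGA
Mir92-2: UAAAguauugcacuugucccggccugAGGA

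In Mir106b-25 the middle hairpin led. Mir93, a miR-17 seed gene, had 1041 CPM in replicate 2 (1010 to 1071) and 1360 CPM in replicate 1 (1316 to 1405) and made up 59.8% ± 3.24 of the cluster's reads. Mir25, whose 3p strand carries the miR-92 seed, stood at 424 CPM in replicate 2 and at 444 CPM in replicate 1. Mir106b stood at 345 CPM in replicate 2 and at 387 CPM in replicate 1. Mir93 exceeded Mir106b by 3.02-fold in replicate 2 (2.85 to 3.20) and 3.52-fold in replicate 1 (3.28 to 3.77), so the order Mir93, Mir25, Mir106b held in both libraries.

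By mean CPM the 9 members ran Mir17, Mir93, Mir92-1, Mir20a, Mir25, Mir106b, Mir18, Mir19a and Mir19b-1. This is the order of counted reads, which for Mir92-1 and Mir19b-1 leave out those that also fit an X-linked copy. Neighbours in that order were set apart where 1 was higher in both libraries and the gap of the means exceeded the sum of their SDs. This held for 7 of 8 neighbouring pairs and failed for Mir19a and Mir19b-1, whose means of 1.17 and 0.981 CPM lay 0.187 CPM apart. The gap of Mir17 over Mir93 was 312 CPM against a sum of SDs of 261 CPM, and that of Mir25 over Mir106b was 68.4 CPM against 43.6 CPM. The genes outside the clusters nearest to Mir17 in level over the 2 libraries were Mir128-1 (1345 CPM in replicate 2 and 1503 CPM in replicate 1), Mir15a (1325 and 1489 CPM) and Mir341 (1593 and 1785 CPM), at distances of 0.149, 0.173 and 0.237 on log2(CPM + 1). For Mir93 they were Mir674 (0.115), Mir361 (0.300) and Mir15b (0.344). With 2 libraries this measures level alone.

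**Figure D2:**
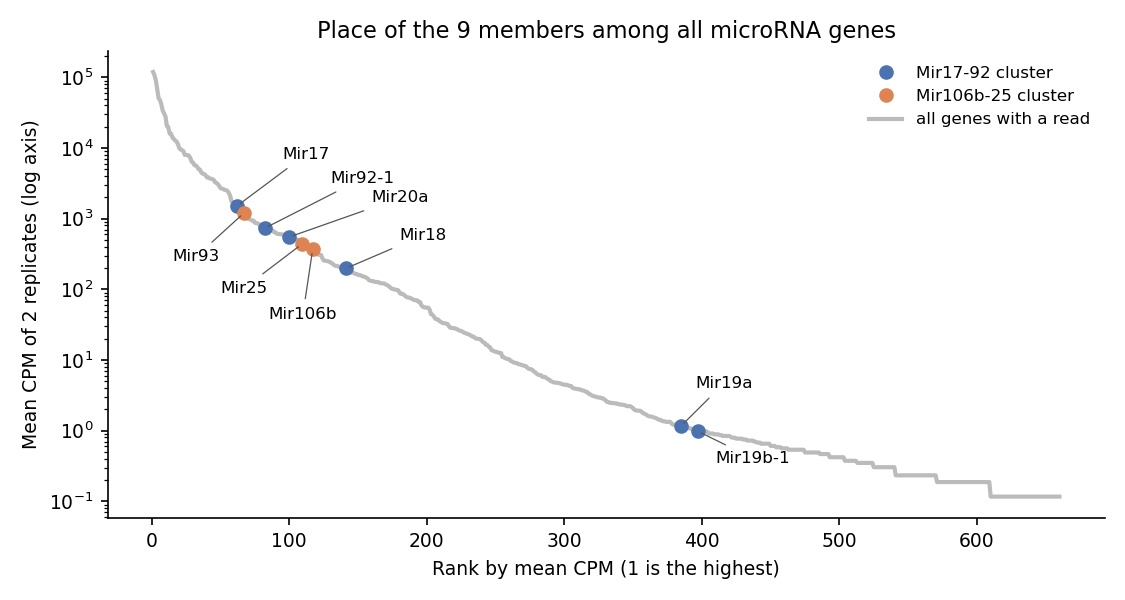
Mean CPM of the 2 replicates (log axis) against rank for the 660 microRNA genes with a read (grey line), with the 9 members marked by cluster. The 7 abundant members lie between rank 62 (Mir17) and rank 141 (Mir18), and Mir19a and Mir19b-1 at ranks 385 and 397.

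The clusters contributed to the same seed families in different proportions. Mir17-Mir92 exceeded Mir106b-25 by 1.64-fold in replicate 2 (1.59 to 1.69) and 1.38-fold in replicate 1 (1.33 to 1.42), a mean of 1.51 ± 0.185. Both values come from 1 library each, so library size drops out. For the miR-17 seed alone the ratio was 1.46 in replicate 2 and 1.20 in replicate 1. For the miR-92 seed, where Mir92-1 stands against Mir25, it was 1.80 and 1.57. Reads that fit both Mir92-1 and Mir92-2 are in no count, so the ratios that hold Mir92-1 may be too low. Mir17-Mir92 was the higher source of both seeds in both libraries. Of the reads of the whole miR-17 seed family, with the X-linked genes counted, Mir17-Mir92 supplied 58.9% in replicate 2 and 54.4% in replicate 1. Mir106b-25 supplied 40.4% (39.6 to 41.2) and 45.2% (44.3 to 46.2).

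By seed family the 4 miR-17 members summed to 3407 CPM in replicate 2 and 3848 CPM in replicate 1 (mean 3628 ± 312 CPM). The miR-92 members, whose targets are largely different from those of the miR-17 seed, summed to 1187 CPM in replicate 2 and 1141 CPM in replicate 1 (1164 ± 32.9 CPM). The miR-18 seed was represented by Mir18 alone (197 ± 25.9 CPM). The miR-19 members summed to 4 reads (0.932 CPM) in replicate 2 and 9 reads (3.37 CPM) in replicate 1. Within Mir17-Mir92 the miR-17 seed exceeded the miR-92 seed by 2.65-fold in replicate 2 (2.55 to 2.76) and 3.02-fold in replicate 1 (2.86 to 3.18). Within Mir106b-25 it did so by 3.27-fold (3.10 to 3.44) and 3.94-fold (3.69 to 4.20). The miR-92 seed of Mir17-Mir92 is Mir92-1 alone, whose count leaves out reads that also fit Mir92-2. Its ratio may therefore be too high, and the clusters cannot be compared by these ratios. With 2 libraries no permutation test of these ratios could pass a threshold of 0.05, and none was run.

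**Figure D3:**
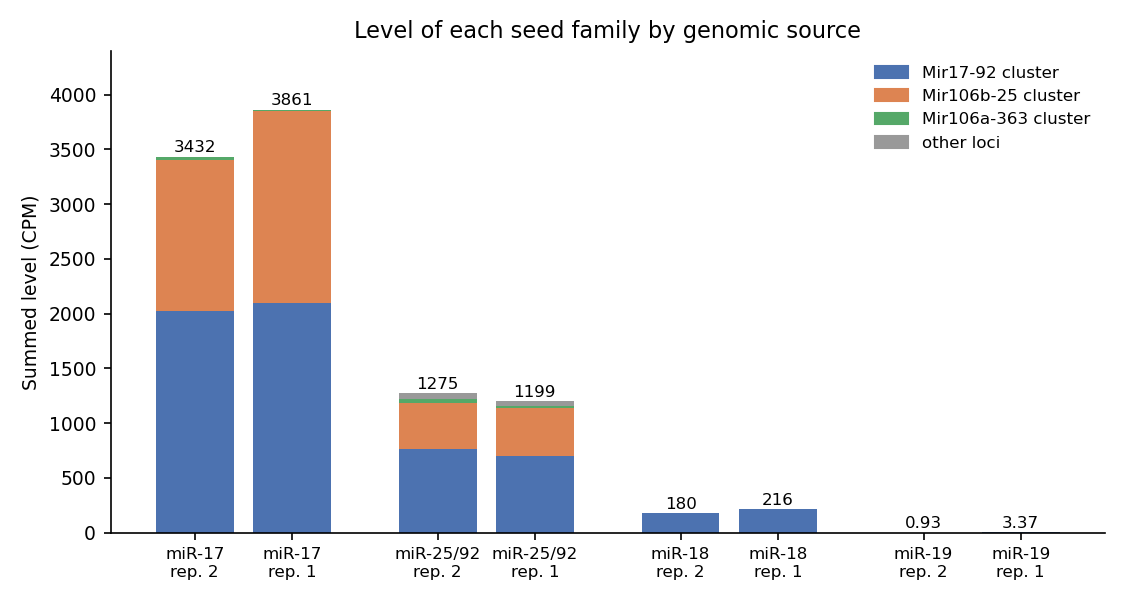
Summed CPM of each seed family in replicate 2 and replicate 1, stacked by genomic source (the miR-92 seed is drawn together with miR-25). The miR-17 family reaches 3432 and 3861 CPM with nearly all of it from Mir17-Mir92 and Mir106b-25, and the miR-19 family is barely visible.

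Of the 7 members that averaged at least 100 CPM, Mir93 differed most between the libraries. It was 0.765-fold in replicate 2 relative to replicate 1 (counting interval 0.732 to 0.799). None of the 7 such members passed 1.5-fold in either direction, beside 7.95% of the 176 genes at that level. Mir93, Mir18 (0.830, 0.744 to 0.927) and Mir106b (0.891, 0.823 to 0.966) were lower in replicate 2 with an interval that excludes 1, which is 3 of 7 members beside 34.7% of genes. Mir92-1 (1.10, 1.03 to 1.16) was higher, which is 1 of 7 beside 39.2%. The intervals of Mir17, Mir20a and Mir25 included 1. On the log2 scale the ratio had a median of -0.08 over the 7 members and 0.01 over the 176 genes, and the median difference in either direction was 1.10-fold and 1.12-fold. Each ratio compares single libraries, so no p-value was computed.

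Among the cluster sums, that of Mir106b-25 was 0.826-fold in replicate 2 relative to replicate 1 (0.798 to 0.855), and the Mir17-Mir92 sum was 0.983-fold (0.956 to 1.01). Dividing by all reads of a library in place of assigned reads shifts every log2 ratio by 0.08. This turns the direction of Mir17-Mir92 (1.04-fold) and of Mir17 (1.03-fold), and puts Mir20a at 1.00-fold and Mir25 at 1.01-fold. By assigned reads the intervals of Mir17, Mir20a and Mir25 included 1. Mir93 and Mir18 stay lower in replicate 2 with an interval that excludes 1, and that of Mir106b (0.944-fold) then includes it. With the 10 most abundant genes left out of the total, 6 of 7 members were lower with such an interval, beside 46.6% of genes, and Mir92-1 was no longer called higher. These counts therefore depend on the denominator. Mir93 made up 57.5% of its cluster in replicate 2 (56.4 to 58.6), against 62.1% in replicate 1 (60.8 to 63.3). The share of Mir17 in Mir17-Mir92 was 50.2% (49.3 to 51.0) and 50.9% (49.8 to 52.0), with overlapping intervals.

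**Figure D4:**
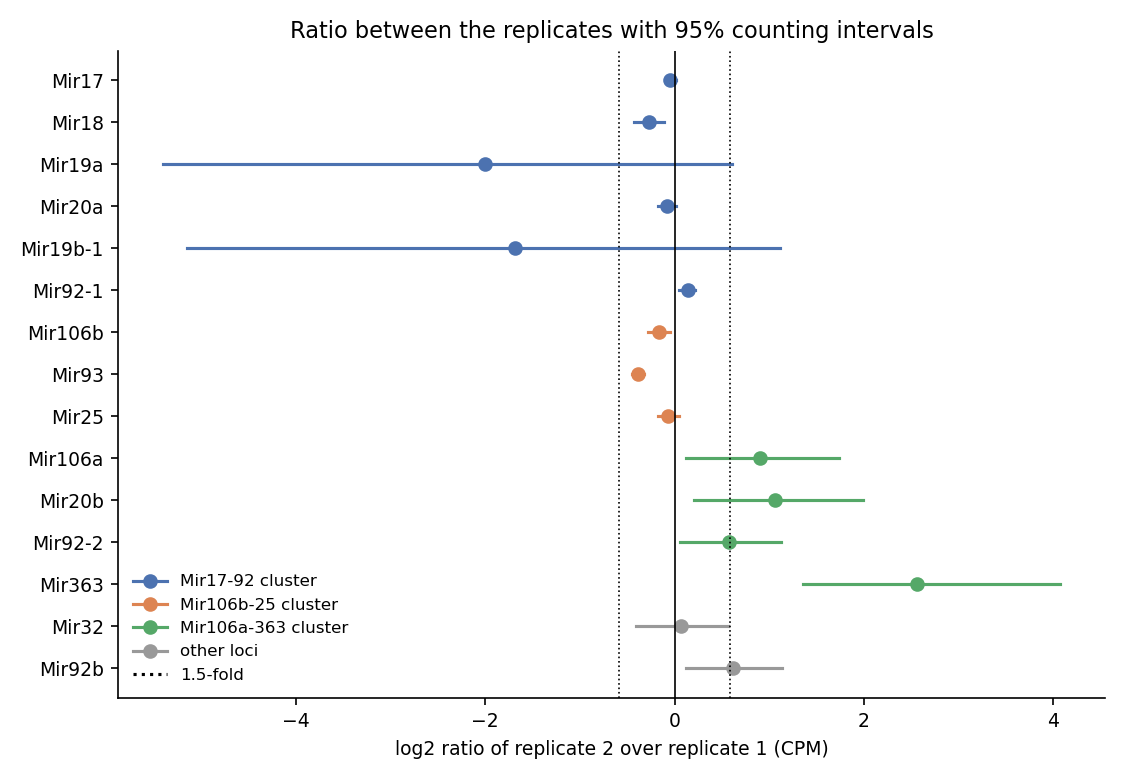
Ratio of replicate 2 over replicate 1 (log2 of CPM) for the members and their relatives, with 95% counting intervals and dotted lines at 1.5-fold. Members other than Mir19a and Mir19b-1 lie between -0.39 and 0.13, whereas the 4 plotted Mir106a-363 genes lie between 0.58 and 2.56. Of the other loci, Mir92b lies at 0.61, within the range of the X-linked genes, and Mir32 at 0.07.

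The X-linked paralog Mir106a-363, which carries copies of the same seeds at chrX:52741693-52742567, was far lower. Its 6 genes summed to 63.1 CPM in replicate 2 (55.8 to 71.1) and 31.1 CPM in replicate 1 (24.7 to 38.5). Mir17-Mir92 exceeded it by 47.0-fold in replicate 2 (41.6 to 53.2) and 97.1-fold in replicate 1 (78.3 to 122). Mir106b-25 exceeded it by 28.7-fold and 70.5-fold. Mir17 had 112 and 216 reads for each read of Mir106a, its paralog that differs by U10A alone, and Mir20a had 45.9 and 101 for each read of Mir20b. The X-linked genes supplied 0.726% of the miR-17 seed family in replicate 2 and 0.330% in replicate 1.

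The X-linked cluster was not led by the miR-17 seed. There the miR-17 seed stood at 0.669 of the miR-92 seed in replicate 2 (0.519 to 0.860) and 0.694 in replicate 1 (0.434 to 1.10), where the interval of replicate 1 includes 1. The gene Mir92-2, at 24.0 CPM in replicate 2 and 16.1 CPM in replicate 1, was its highest gene, and reads that fit both it and Mir92-1 are in neither count. Mir106a had 13.3 and 7.11 CPM and Mir20b 11.6 and 5.61 CPM. Mir18b had 4 reads in replicate 2 and 0 in replicate 1, and Mir19b-2 had 0 in both. The mature strand of Mir19b-2 is 1 of the copied ones, and at 4 reads or fewer these genes cannot be ordered. Mir363 had 57 reads in replicate 2 and 6 in replicate 1, a ratio of 5.92 (2.56 to 16.8).

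The 4 X-linked genes with a read in both libraries were all higher in replicate 2, beside 57.9% of the 38 genes with such reads and a mean CPM in their range. The sum of the cluster was 2.03-fold in replicate 2 relative to replicate 1 (1.58 to 2.63), or 1.73-fold (1.33 to 2.28) without Mir363. Past 2-fold were 2 of the 4, Mir20b and Mir363, beside 10.5% of the 38 genes, themselves included. The CPM sum of Mir106b-25 was lower in replicate 2, and that of Mir17-Mir92 was 0.983-fold with an interval that includes 1 (0.956 to 1.01). The difference between the X-linked cluster and the 2 autosomal clusters was not tested.

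The remaining microRNAs that carry the miR-92 seed were rare. Mir92b had 118 reads in replicate 2 and 48 reads in replicate 1, Mir32 had 98 and 58 reads, and Mir367, of a pluripotency cluster, had 0 in both. These genes supplied 3.95% of the family's reads in replicate 2 and 3.31% in replicate 1, and the X-linked Mir92-2 and Mir363 supplied 2.92% and 1.53%. The rest came from Mir92-1 (59.9% and 58.1%) and Mir25 (33.3% and 37.0%). These are shares of counted reads, which leave out those that fit both Mir92-1 and Mir92-2, so the share of Mir92-1 may be too low.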

How the data were processed

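Small RNA libraries of a stated size range under 30 nt, from 2 gastrocnemius samples of 1 group, were deposited by the authors as raw read counts per gene, with unstranded, same-strand and opposite-strand columns. The build is mm10 per the labels, and the gene identifiers match GENCODE M21. Neither an aligner nor a counting tool is named by the labels or headers. Each table opens with 4 lines of unassigned reads, the layout that STAR writes. The same-strand column was used. Those lines, which name no gene, were left out of totals, with 64.6% of the reads of replicate 2 and 66.6% of replicate 1. Reads that aligned to several places are among them, so copies of a mature strand lose reads.

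The members and lists were chosen with earlier results of these data known. CPM, mean ± SD, exact Clopper-Pearson 95% intervals and intervals of ratios were computed in Python 3.11.15 with scipy 1.17.1, and folding energies with RNAfold 2.7.2. A count of 0 was given a limit of 3 reads. With 1 group no test between conditions was possible, and replicate ratios were called past 1.5-fold. The spread of 255 genes gave a biological coefficient of variation of 19.6% (common dispersion, edgeR 4.0.16 in R 4.3.3). Ratio code was tested on simulated data with a smaller spread than this, and interval code on draws with counting error alone. These runs check the code and not the spread of these data. Named genes were the 9 members, 9 listed relatives, the 3 non-members nearest to Mir17 and to Mir93, and genes sharing 18 nt or more with a member. Nearness was the distance over log2(CPM + 1). The seeds come from the arm usually taken as functional, since counts pool arms. Alternatives were TMM and DESeq2 1.42.0 scaling, the unstranded column, other denominators, summed copies, other limits and leaving out each replicate.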

Additional observations from a re-analysis of the deposited data

How the results depend on the processing

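No paired analysis was possible because there is 1 group. TMM and DESeq2 scaling moved no level or ratio by more than the spread or counting interval, but the number of members lower in replicate 2 with an interval that excludes 1 was 5 under both, against 3 of 7. Recounting these calls was chosen after seeing the data. That number was 5 with the unstranded column, 6 without the 10 most abundant genes and 2 with all reads, and the number higher was 0 without the 10 most abundant genes and 1 otherwise. Other denominators rescale every level. With the unstranded column the mean CPM was 4025 for Mir17-Mir92, 2694 for Mir106b-25, 4885 for the miR-17 members, 266 for miR-18 and 1566 for miR-92. Without the 10 most abundant genes in the total these were 7747, 5189, 9407, 512 and 3013 in the same order, and 5.63 for miR-19. With all reads of the library they were 1028, 686, 1245, 67.6 and 400. The ratio of replicate 2 over replicate 1 became 0.942 for Mir17-Mir92, 0.792 for Mir106b-25 and 0.849 for the miR-17 members without the 10 most abundant genes. With all reads it became 1.04, 0.875 and 0.938, and 1.10 for miR-92, so the direction for Mir17-Mir92 depends on the denominator. Ratios within a library are untouched by scaling. With the counts of identical mature copies moved to Mir17-Mir92, it exceeded Mir106a-363 by 140-fold, against 72.1-fold. That setting credits Mir17-Mir92 with reads assigned to Mir92-2 alone and restores none that fit both, so 140-fold is not a better estimate. Leaving out each replicate gave 47.0 and 97.1. At the lower fold limit tried, 1 member (Mir93) passed, beside 23.9% of 176 genes. With no filter on low counts, 2 of 9 members (Mir19a and Mir19b-1, at 2 to 5 reads) passed 1.5-fold, beside 36.3% of 496 genes. The order of the members was the same under the scalings, denominators, strand column and summed copies tried (it was not computed with a replicate left out), with 6 rather than 7 neighbouring pairs set apart without the 10 most abundant genes. The members at 1 CPM numbered 9 rather than 7 without the 10 most abundant genes and without replicate 2, and those averaging 100 CPM numbered 6 rather than 7 with all reads and at the higher threshold tried. Depth limits Mir19a, Mir19b-1 and the X-linked genes, whose ratios rest on few reads.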
